A study of Homo sapiens with 16 samples.

Results

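Soft-selected cells were compared with stiff-selected cells in 8 of the 16 RNA-seq libraries of the series, 4 from each population. Both populations came from MDA-MB-231, a wild-type human breast adenocarcinoma line, and were grown for 75 days on polyacrylamide gels that carried type I collagen, with 20000 cells plated to start each line. The soft ECM had a Young's modulus of 1 kPa and the stiff ECM one of 308 kPa, although the names of the stiff libraries say 3 kPa. RNA of soft-selected cells was taken on soft ECM and RNA of stiff-selected cells on stiff ECM, so that the population and the ECM on which it was measured cannot be told apart. The other 8 libraries are of unselected ancestral cells, 4 on each ECM. They carry the name of another library project and were used only where stated. The measure was FPKM, a read count divided by the length of the gene and by the depth of the library, and a gene was tested when it reached an FPKM of 1 in at least 4 of the 8 libraries. That left 12440 of the 19468 genes of the table. Whether the 4 libraries of a population came from separate lines is not stated in the labels, so that a p-value here covers the variation among 4 libraries, part of which may be technical.

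Cells hold on to collagen through integrins, receptors that connect the matrix to actin by way of focal adhesions. On stiff matrix these adhesions grow, small GTPases drive actomyosin contraction, and the coactivators YAP and TAZ enter the nucleus, where they switch on genes together with TEAD factors. Cells also change the matrix by secreting collagens, matrix proteases and protease inhibitors.

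The recovered reads per library numbered 34284794 to 44279020 in soft-selected cells and 36304717 to 44216343 in stiff-selected cells. Genes that mark this line were at high levels in all 8 libraries, with an FPKM of 2165 to 2434 for VIM (vimentin) and 383 to 466 for CD44 (the hyaluronan receptor). ESR1 (estrogen receptor) and CDH1 (E-cadherin) were at or near 0, at no more than 0.0777 and 0.175, while ERBB2 was at 36.5 to 43.1 and EPCAM at 7.04 to 11.4. Of 11 fibroblast markers 2 passed the filter, the summed FPKM of the list was 5.54 to 7.62 in soft-selected and 4.21 to 6.29 in stiff-selected libraries, and DPT was at 0 in all 8. Of 12 blood and endothelial markers 3 passed, and the summed FPKM was 125 to 156 against 96.6 to 112, nearly all of it from CD68, a lysosomal protein, at 121 to 153 against 92.9 to 109. HBB was at 0 in all 8 libraries and PTPRC at no more than 0.0804. Weakly expressed genes had higher values in soft-selected libraries, where the 25th percentile of FPKM over all genes was 0.0923 to 0.102, against 0.0578 to 0.0808 in stiff-selected libraries. The part of this shift in results on weak genes was not tested.

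Soft-selected cells had higher levels of secreted cystatins, of RGS5, which restrains G protein signaling, and of the collagen receptor chain ITGA1. Stiff-selected cells had higher levels of the collagenase MMP1, the cytokine IL11 and the lipase MGLL. At an adjusted p under 0.01 by limma on log2(FPKM + 1), 78 genes were higher in soft-selected cells (0.627% of the genes tested) and 44 were lower (0.354%). A difference of at least 2-fold on that scale was reached by 12 of the higher and 3 of the lower genes. Of the 78 higher genes 2 reached an FPKM of 1 in soft-selected libraries alone, so that they had to be higher there. None of the 44 lower genes reached it in stiff-selected libraries alone. At an adjusted p under 0.05 the counts were 618 (4.97%) and 434 (3.49%), and in 1196 genes (9.61%) every soft-selected library lay above every stiff-selected one, against 931 (7.48%) with the reverse order. Across all genes the median log2 difference was 0.02. The libraries are of bulk RNA, in which a change of level in every cell and a change in the share of cells that express a gene cannot be told apart.

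The counts depended on single libraries. Without soft-selected replicate 2 they rose to 219 higher and 153 lower genes, and without soft-selected replicate 4 they were 104 and 37. They dropped to 3 and 2 without soft-selected replicate 1 and to 2 and 1 without soft-selected replicate 3. Without stiff-selected replicates 1 to 4 in turn they were 2 and 0, 2 and 1, 7 and 8, and 64 and 21. Of 51 called genes named here, RGS5 stayed under an adjusted p of 0.01 in all 8 of these limma fits, and the largest adjusted p that any of the 51 reached in any of them was 0.042.

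In a principal component analysis of the 6220 most variable genes by median absolute deviation, PC1 held 41.4% of the variance and separated the populations. PC1 scores were 52.9, 22.5, 55.9 and 44.8 in soft-selected replicates 1 to 4, and -73.5, -44.9, -44.5 and -13.4 in stiff-selected replicates 1 to 4. The groups did not overlap, and their means differed by 88.1 (two-sided p = 0.0286 in an exact permutation test, which 4 libraries against 4 cannot go below). Soft-selected replicate 2 lay nearest to the stiff-selected side within its group. It stood apart on PC2 (17.5% of the variance), with a score of 71.4, where the other 7 libraries had -44.1 to 8.26.

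**Figure D1:**
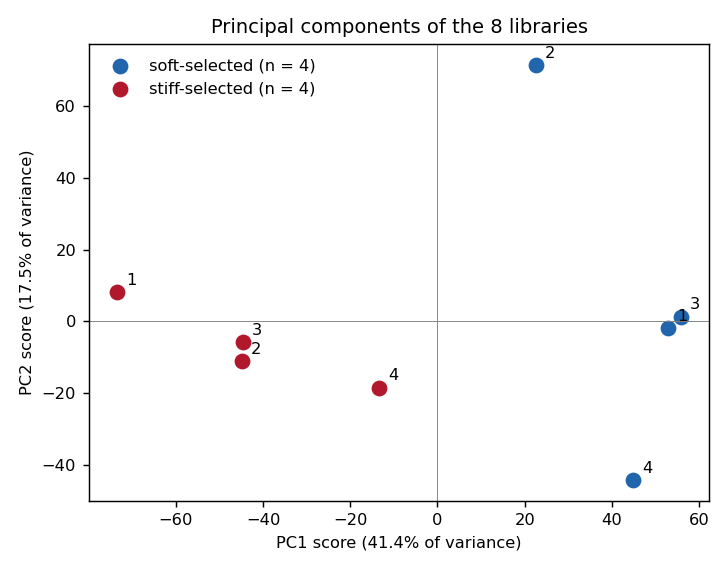
Scores of the 8 libraries on PC1 (41.4% of variance, x axis) and PC2 (17.5%, y axis), labelled with replicate numbers. Blue points are soft-selected and red points stiff-selected libraries. All soft-selected libraries have positive PC1 scores, and replicate 2 has a PC2 score of 71.4.

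Inhibitors and proteases that act outside the cell held the largest differences in both directions. CST1 encodes cystatin SN, a secreted inhibitor of cysteine proteases. Its FPKM was 267, 297, 263 and 92.3 in soft-selected replicates 1 to 4 and 30.5, 26.4, 43.4 and 30.04 in stiff-selected replicates 1 to 4. The groups did not overlap, replicate 4 being lowest of the soft-selected libraries, and the means were 230 ± 92.9 (SD, n = 4) and 32.6 ± 7.43, a log2 difference of 2.67 (SE 0.31, limma adjusted p = 0.003). CST4, encoding cystatin S, was at 22.3, 34.4, 29.7 and 10.3 in soft-selected replicates and 4.72, 3.29, 7.44 and 7.17 in stiff-selected replicates, again without overlap (log2 difference 1.85, SE 0.32, limma adjusted p = 0.0098). CST1 and CST4 are neighbors on chromosome 20 with 0 other coding genes between them. The next cystatin genes of the cluster on each side, CST2 and CST3, were chosen for description after their values were seen. CST2 was at 6.53 to 9.85 in soft-selected and 1.37 to 6.21 in stiff-selected libraries, and CST3, encoding the abundant cystatin C, at 672 to 1060 and 583 to 627 (limma adjusted p = 0.037 and 0.024, not past the threshold). The cystatin genes are close paralogs that may share reads, so that the level of each is uncertain.

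MMP1, the interstitial collagenase that cleaves type I collagen, went the other way. Its FPKM in soft-selected replicates 1 to 4 was 20.8, 14.1, 18.3 and 25.5, and in stiff-selected replicates 1 to 4 it was 78.3, 55.2, 133 and 53.7. Every stiff-selected library lay above every soft-selected one, and the mean was 4.07-fold higher in stiff-selected cells (log2 difference -1.90, SE 0.25, limma adjusted p = 0.0041). Of 44 proteases, inhibitors and cross-linkers of the ECM tested, 3 were higher and 1 was lower (all genes 0.627% and 0.354%). The median log2 difference was 0.08. The remaining higher member was PLOD1, a lysyl hydroxylase that modifies collagen for cross-linking, at 138 to 171 in soft-selected and 107 to 121 in stiff-selected libraries (log2 difference 0.45, limma adjusted p = 0.008).

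COL12A1, THBS1 and SDC1 were lower in soft-selected cells, while the lists of matrix proteins they belong to had medians near 0. COL12A1, a collagen that associates with type I fibrils, was at 41.0 to 47.0 in soft-selected and 60.04 to 75.8 in stiff-selected libraries (log2 difference -0.65, SE 0.08, limma adjusted p = 0.0041). It was the called member among 15 collagens, whose median difference was 0.06. Among 37 glycoproteins and proteoglycans of the ECM, THBS1 (thrombospondin 1) and the cell surface proteoglycan SDC1 (syndecan 1) were lower and 0 were higher. The list's median was 0.09, and over all genes 0.354% were called lower and 0.627% higher. THBS1 was at 430 to 557 against 693 to 803, and SDC1 at 27.7 to 30.9 against 40.9 to 54.2, with no overlap in either case (limma adjusted p = 0.0071 and 0.0041).

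**Figure D2:**
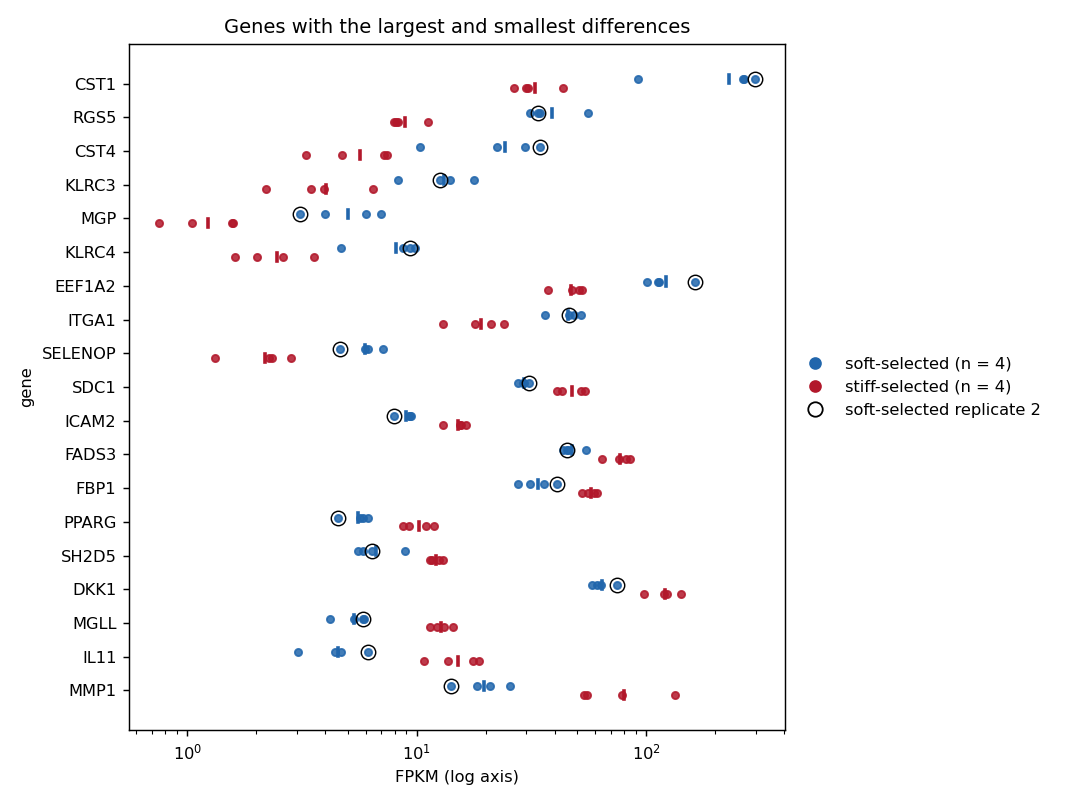
FPKM (x axis, log scale) of 9 genes with the largest and 10 with the smallest log2 difference, ordered by that difference from SDC1 to MMP1 below and from CST1 to SELENOP above. Points are libraries, vertical ticks are group means, and black rings mark soft-selected replicate 2, which lies outside the range of the stiff-selected libraries for each gene plotted because genes with overlapping groups were not eligible.

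Integrins with a called difference were the collagen-binding chains ITGA1 and ITGA2. ITGA1 had an FPKM of 48.5, 45.9, 51.7 and 36.2 in soft-selected replicates 1 to 4 and of 13.02, 17.98, 21.1 and 23.9 in stiff-selected replicates 1 to 4. Each soft-selected library was above each stiff-selected one, and the mean was 2.40-fold higher (log2 difference 1.24, SE 0.16, limma adjusted p = 0.0041). ITGA2 was at 86.0 to 97.0 in soft-selected and 62.3 to 74.2 in stiff-selected libraries (log2 difference 0.49, SE 0.07, limma adjusted p = 0.0051). In the annotation 1 coding gene, PELO, lies between ITGA1 and ITGA2 on chromosome 5. ITGB1, the beta chain that pairs with both, was at 396 to 419 and 373 to 400, with overlapping groups (log2 difference 0.08, SE 0.05, limma adjusted p = 0.38). Of 13 integrins tested 2 were higher and 0 were lower at 0.01 (all genes 0.627% and 0.354%). The median log2 difference was 0.24, and 11 had a positive difference.

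No regulator of contraction on the lists passed the test. RHOA, the GTPase that drives actomyosin contraction, was at 492, 543, 512 and 553 in soft-selected replicates 1 to 4 and at 602, 595, 549 and 580 in stiff-selected replicates 1 to 4. The groups overlapped at a single pair of libraries, and the log2 difference was -0.15 (SE 0.06, limma adjusted p = 0.15). ARHGAP42, a GTPase-activating protein that turns RHOA off, was at 4.55 to 7.46 against 7.29 to 8.32 (log2 difference -0.37, SE 0.12, limma adjusted p = 0.075). The gene lies on chromosome 11, along much of which soft-selected replicate 2 was low, and its lowest value was in that library. Without replicate 2 the log2 difference of ARHGAP42 was -0.27 (limma adjusted p = 0.11). Of 27 RhoGAPs and 28 RhoGEFs 0 were called at 0.01 by limma, and their medians were -0.02 and 0.00. At an adjusted p under 0.05, 2 RhoGAPs were higher and 2 lower, and 1 RhoGEF higher and 1 lower (all genes 4.97% and 3.49%). Among 35 focal adhesion components and 32 actomyosin and SRF target genes 0 were called at 0.01, and their medians were both -0.03.

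Genes that YAP and TEAD switch on were lower in soft-selected cells where a difference passed the test. Of 23 tested, 3 were lower and 0 were higher at 0.01 (all genes 0.354% and 0.627%). At an adjusted p under 0.05, 9 were lower and 1 was higher (all genes 3.49% and 4.97%). A negative difference was found in 19, and the median was -0.27 against 0.02 over all genes. In 10 of the 23 every soft-selected library lay below every stiff-selected one, against 7.48% of all genes. With all 16 libraries in the limma fit 11 were lower and 0 were higher at 0.01, where 3.87% of all genes were called higher and 2.62% lower. Without soft-selected replicate 2 the count at 0.01 was 4 lower and 0 higher (all genes 1.23% and 1.76%).

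The 3 called members encode the coagulation receptor tissue factor (F3), the LIM domain protein AJUBA and the transmembrane protein CRIM1. F3 had an FPKM of 232, 284, 216 and 214 in soft-selected replicates 1 to 4 and of 398, 388, 308 and 363 in stiff-selected replicates 1 to 4, so that the groups did not overlap (log2 difference -0.62, SE 0.10, limma adjusted p = 0.0086). AJUBA, which binds LATS kinases, was at 41.7 to 55.4 against 63.4 to 76.0 (log2 difference -0.56, limma adjusted p = 0.0086). CRIM1 was at 105 to 125 against 141 to 158 (log2 difference -0.37, limma adjusted p = 0.0098).

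The members commonly read as YAP reporters were chosen for description after their values were seen. ANKRD1, a muscle ankyrin repeat protein, was at 52.5, 74.2, 57.1 and 70.8 in soft-selected replicates 1 to 4 and at 95.4, 108, 163 and 87.3 in stiff-selected replicates 1 to 4, without overlap (log2 difference -0.79, SE 0.17, limma adjusted p = 0.021). CYR61, a matricellular protein, was at 415, 579, 379 and 361 in soft-selected replicates and 633, 655, 614 and 539 in stiff-selected replicates (log2 difference -0.51, SE 0.13, limma adjusted p = 0.036). CTGF, its relative, was at 178, 240, 150 and 136 in soft-selected replicates and 218, 230, 243 and 180 in stiff-selected replicates (log2 difference -0.33, SE 0.15, limma adjusted p = 0.18). In CYR61 and CTGF soft-selected replicate 2 was the highest of its group and lay within the stiff-selected range. Without that library the log2 differences of CYR61 and CTGF were -0.66 and -0.50 (limma adjusted p = 0.0014 and 0.014). LATS2, FJX1, TGFB2 and AXL, which also had an adjusted p under 0.05, had log2 differences of -0.65 to -0.32 and did not overlap. RBMS3, an RNA-binding protein, was the member with a positive difference at that threshold (0.40, limma adjusted p = 0.024). Neither coactivator passed the test. YAP1 was at 143 to 168 in soft-selected and 157 to 159 in stiff-selected libraries (log2 difference -0.01, SE 0.06, limma adjusted p = 0.92), and WWTR1, which encodes TAZ, was at 73.5 to 95.6 against 64.7 to 72.0 (log2 difference 0.29, SE 0.08, limma adjusted p = 0.047).

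The TEAD motif was searched as GGAATG on either strand in promoters of the RefSeq annotation of GRCh38.p14, from 250 bases before to 50 after each gene's start. A promoter was at hand for 10246 of the 12440 genes, and 10.8% of them held these letters. Of 17 promoters of the YAP and TEAD list 7 did, those of LATS2, CTGF, ANKRD1, FOXF2, PTPN14, NUAK2 and TGFB2. Of the promoters of genes called higher 6 of 59 held it (10.2%), and of those called lower 5 of 34 (14.7%). The upstream stretches of CTGF, ANKRD1 and TGFB2 are shown because these members of the list were described above and hold the motif before the start, in capitals here. A match is a description of letters and not a binding site.
CTGF, chr6:131951432-131951571, minus strand: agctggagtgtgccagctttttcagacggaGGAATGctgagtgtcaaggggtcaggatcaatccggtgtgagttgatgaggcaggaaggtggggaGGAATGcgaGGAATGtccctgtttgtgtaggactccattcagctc
ANKRD1, chr10:90921180-90921337, minus strand: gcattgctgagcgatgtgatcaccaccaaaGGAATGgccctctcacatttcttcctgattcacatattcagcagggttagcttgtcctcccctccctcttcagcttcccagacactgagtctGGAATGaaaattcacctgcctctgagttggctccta
TGFB2, chr1:218345121-218345186, plus strand: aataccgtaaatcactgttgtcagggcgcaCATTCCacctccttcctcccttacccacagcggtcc
The CTGF stretch holds 3 copies, which begin 169, 104 and 95 bases before the start, and the ANKRD1 stretch holds 2, at 220 and 128 bases. TGFB2 holds 1 at 185 bases, printed as CATTCC, the same letters on the other strand. The AP-1 motif TGANTCA was in 4.54% of all promoters, in 1 of 59 of the genes called higher and in 2 of 34 of those called lower. The cAMP response element TGACGTCA was in 3.32% of all, 1 of 59 and 1 of 34. Both were searched on either strand, and no motif contains another.

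JUNB and SNAI1 were the transcription factors called on the lists, and both were higher in soft-selected cells. JUNB, a subunit of AP-1, had an FPKM of 85.9, 89.5, 92.0 and 73.3 in soft-selected replicates 1 to 4 and of 50.7, 52.5, 55.3 and 50.7 in stiff-selected replicates 1 to 4. The groups were well separated, with a log2 difference of 0.69 (SE 0.07, limma adjusted p = 0.0022). JUNB was the called member among 18 AP-1 and ATF factors, whose median was 0.14. SNAI1, a repressor of epithelial genes, was at 23.1, 18.04, 24.4 and 20.002 against 11.98, 12.5, 12.6 and 12.96 (log2 difference 0.72, SE 0.09, limma adjusted p = 0.0041), and of 4 EMT transcription factors tested it was the called one. Other factors among the higher genes were chosen after their values were seen. KLF9, KLF4 and BCL6 had log2 differences of 0.86, 0.52 and 0.54 (limma adjusted p = 0.0052, 0.008 and 0.0041), MXD4, a partner of MAX that opposes MYC, one of 0.52 (limma adjusted p = 0.0099), and the nuclear receptor coactivator PNRC1 one of 0.63 (limma adjusted p = 0.0041). None of these 5 genes overlapped between the groups. Of 20 epithelial markers 0 were called at 0.01, with a median of -0.05, and of 11 mesenchymal markers 0, with a median of 0.17. At an adjusted p under 0.05, 2 epithelial markers were higher and 3 lower, and 2 mesenchymal markers higher and 1 lower. Over all genes 4.97% were higher and 3.49% lower at that threshold.

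Outputs of ERK signaling had differences past the wider threshold alone in the fit of the 8 libraries. Among 22 MAPK output genes 0 were called at 0.01 by limma, 7 were higher and 1 was lower at an adjusted p under 0.05 (all genes 4.97% and 3.49%), and the median was 0.15. With all 16 libraries in the fit, 4 were higher and 1 was lower at 0.01 (all genes 3.87% and 2.62%). Without soft-selected replicate 2 the count at 0.01 was 3 higher and 0 lower (all genes 1.76% and 1.23%). ETV1, an ETS factor, was at 54.4 to 74.4 in soft-selected and 38.9 to 47.9 in stiff-selected libraries (log2 difference 0.51, limma adjusted p = 0.012). The lower member was CCND1, the cyclin that drives cells out of G1, at 252 to 315 against 351 to 386 (log2 difference -0.37, limma adjusted p = 0.018).

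Interferon-stimulated genes, which encode antiviral proteins and their sensors, had mostly positive differences. Of 45 tested, 2 were higher and 0 were lower at 0.01 (all genes 0.627% and 0.354%). At an adjusted p under 0.05, 16 were higher and 0 lower (all genes 4.97% and 3.49%). With all 16 libraries in the fit, 14 were higher and 0 lower at 0.01 (all genes 3.87% and 2.62%). A positive difference was found in 44 of the 45, with a median of 0.30, and in 16 every soft-selected library lay above every stiff-selected one, against 9.61% of all genes. ISG20, a nuclease that degrades viral RNA, was at 15.005, 17.2, 15.3 and 13.4 in soft-selected replicates 1 to 4 and at 9.16, 8.78, 6.73 and 7.09 in stiff-selected replicates 1 to 4. These groups did not overlap (log2 difference 0.87, SE 0.11, limma adjusted p = 0.0041). GBP2, an interferon-induced GTPase, was at 49.8 to 52.6 against 23.4 to 38.8 (log2 difference 0.69, SE 0.12, limma adjusted p = 0.0098). Just outside the threshold were the RNA sensor IFIH1, at 21.4 to 31.0 against 14.5 to 19.4, and IFI44L, at 3.76 to 5.67 against 1.38 to 2.87 (limma adjusted p = 0.011 for both). B2M, the light chain of MHC class I, which is not on the list, was higher as well, at 1498 to 1783 against 1142 to 1275 (log2 difference 0.46, limma adjusted p = 0.0098), and CD274, the checkpoint ligand PD-L1, was lower, at 8.79 to 10.9 against 12.8 to 15.6 (log2 difference -0.60, limma adjusted p = 0.0075). These last 4 genes were chosen after their values were seen. ISG20 and B2M lie on chromosome 15, which was higher as a whole in soft-selected replicate 2. Without that library their log2 differences were 0.81 and 0.44 (limma adjusted p = 0.0024 and 0.0086).

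Cytokine genes had differences of both signs. IL11, an IL-6-type cytokine, was at 3.03, 6.14, 4.67 and 4.39 in soft-selected replicates 1 to 4 and at 17.5, 13.7, 18.6 and 10.7 in stiff-selected replicates 1 to 4, a gap in every library and a mean 3.32-fold higher in stiff-selected cells (log2 difference -1.54, SE 0.19, limma adjusted p = 0.0041). It was the called member among 36 NF-kB target genes and cytokines. At an adjusted p under 0.05, 10 were higher and 3 were lower (all genes 4.97% and 3.49%), and the list's median was 0.25. IL24, chosen after its values were seen, had a difference of the same sign, at 7.25, 9.01, 8.18 and 21.9 against 38.1, 30.6, 51.1 and 22.7, where soft-selected replicate 4 came close to stiff-selected replicate 4 (log2 difference -1.62, SE 0.30, limma adjusted p = 0.012). Members with positive differences included IL6 (15.4 to 26.7 against 10.1 to 14.9), the chemokine CCL5 (2.68 to 4.89 against 1.26 to 1.93) and NFKBIA, the inhibitor that NF-kB induces (158 to 196 against 101 to 138). They were also chosen after their values were seen, and their log2 differences were 0.75, 0.88 and 0.51 (limma adjusted p = 0.017, 0.01 and 0.013).

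**Figure D3:**
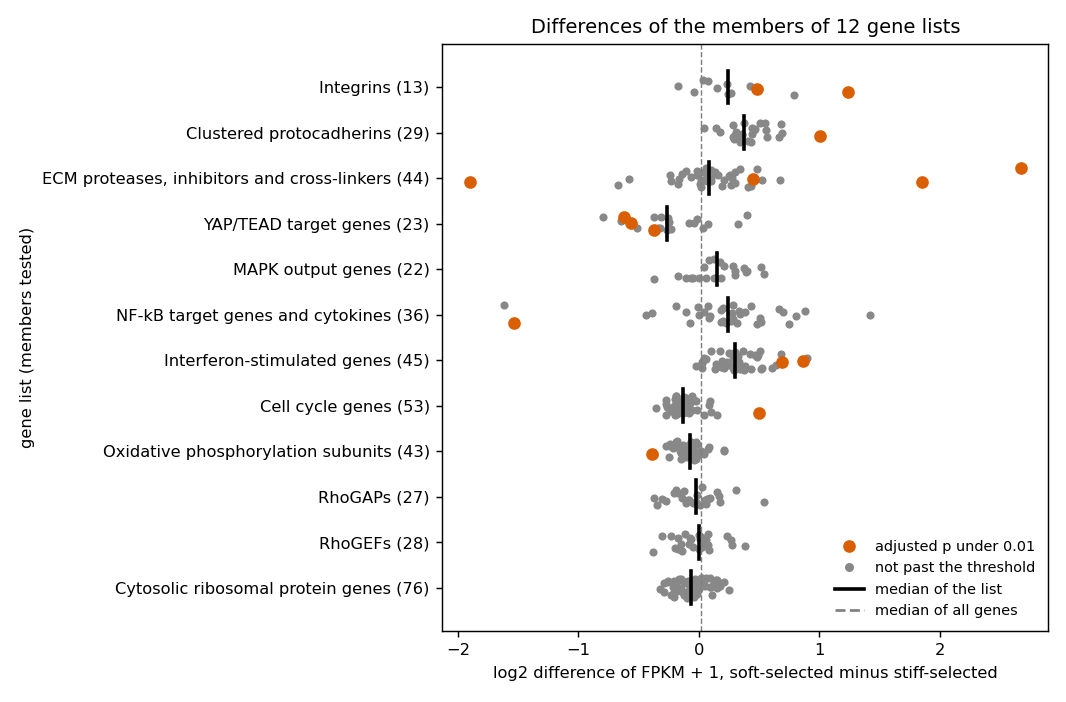
Log2 difference of FPKM + 1 (x axis, soft-selected minus stiff-selected) of every tested member of 12 gene lists (y axis, with the number of members). Orange points passed an adjusted p of 0.01, black bars are list medians, and the dashed line is the median of all genes at 0.02. The medians run from -0.27 for YAP/TEAD target genes to 0.38 for clustered protocadherins.

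Clustered protocadherins are homophilic adhesion receptors encoded side by side on chromosome 5. All 29 tested members had a positive difference, with a median of 0.38. Among them 1 was called higher at 0.01 (all genes 0.627%) and 7 at an adjusted p under 0.05 (all genes 4.97%), and 0 were lower. Without soft-selected replicate 2 the count at 0.01 was 6, with PCDHB16 among them (all genes 1.76%). Of 53 in the table, 24 did not pass the filter, and 22 of these had a positive and 2 a negative difference. PCDHB16 was at 2.32, 1.957, 3.59 and 1.84 in soft-selected replicates 1 to 4 and at 0.505, 0.908, 0.555 and 0.752 in stiff-selected replicates 1 to 4 (log2 difference 1.01, SE 0.16, limma adjusted p = 0.008). It reached an FPKM of 1 in soft-selected libraries alone and passed the filter through them, so that it had to be higher there and its test carries no weight of its own. This held for 2 of the 29 members, PCDHB16 and PCDHB8, both of which are among the 7 at an adjusted p under 0.05. The other 27 had a median of 0.36, and none of them was called at 0.01 with all 8 libraries. PCDHGB1, chosen after its values were seen, was better expressed, at 14.2 to 17.6 against 9.22 to 12.1 (log2 difference 0.51, limma adjusted p = 0.012). Members of the cluster share exons and may share reads. The list is weakly expressed, with a summed FPKM of 155 to 212 against 111 to 156, and the 25th percentile of FPKM over all genes differed in the same direction. After the medians of 25 neighboring genes were removed from each library, a step added after seeing the data, the adjusted p of PCDHB16 was 0.034, and many of its neighbors are protocadherins themselves. Of 18 other cadherins and homophilic adhesion genes 0 were called at 0.01. At an adjusted p under 0.05, 3 of them were higher and 2 lower (all genes 4.97% and 3.49%).

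Genes of DNA replication and mitosis had mostly negative differences, of which 0 passed the test at 0.01. Of 53 cell cycle genes, 47 had a negative difference, the median was -0.13, and in 17 every soft-selected library lay below every stiff-selected one (7.48% of all genes did). At an adjusted p under 0.05, 4 were lower and 1 was higher (all genes 3.49% and 4.97%). Among the lower was CDC20, an activator of the anaphase-promoting complex, at 193 to 207 against 232 to 296 (log2 difference -0.35, limma adjusted p = 0.019). The member called at 0.01 was CDKN1A, the p21 inhibitor of cyclin-dependent kinases, at 96.5, 92.0, 89.2 and 78.3 in soft-selected replicates 1 to 4 and at 63.7, 61.3, 62.9 and 61.6 in stiff-selected replicates 1 to 4. It was higher in each soft-selected library (log2 difference 0.50, SE 0.07, limma adjusted p = 0.0041). MKI67, the proliferation marker Ki-67, was at 212 to 283 against 242 to 260 (log2 difference -0.02, SE 0.08, limma adjusted p = 0.88).

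Respiratory chain genes also had mostly negative differences, which was not particular to them. Cytosolic ribosomal protein genes had negative differences in 58 of 76 (median -0.06) and histone genes in 12 of 14 (median -0.15). Among 43 subunits of oxidative phosphorylation 34 had a negative difference, with a median of -0.07. In 11 of them every soft-selected library was below every stiff-selected one (7.48% of all genes). The called one was ATP5O, a subunit of ATP synthase on chromosome 21, at 82.6 to 100.2 against 111 to 122 (log2 difference -0.39, SE 0.07, limma adjusted p = 0.0091).

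On the lists of lipid-handling enzymes and of ATF4 and unfolded protein response genes 1 member each was called, both lower (all genes 0.354%). MGLL, monoacylglycerol lipase, which frees fatty acids from monoacylglycerols, was at 5.90, 5.85, 4.18 and 5.35 in soft-selected replicates 1 to 4 and at 14.4, 12.3, 13.1 and 11.5 in stiff-selected replicates 1 to 4. Its groups were far apart (log2 difference -1.13, SE 0.11, limma adjusted p = 0.0014), and it was the called member among 22 lipid-handling enzymes, whose median was 0.00. Genes of metabolism outside that list were named for the size of their difference. PPARG, a nuclear receptor that controls lipid storage, was at 4.55 to 6.11 against 8.68 to 11.9, and FADS3, of the fatty acid desaturase family, at 43.5 to 54.6 against 64.3 to 84.6 (log2 differences -0.77 and -0.69, limma adjusted p = 0.0064 and 0.0045). FBP1, an enzyme of gluconeogenesis, was at 27.6 to 40.9 against 52.5 to 61.1 (log2 difference -0.75, limma adjusted p = 0.005). SLC7A1, an importer of cationic amino acids, was the called member of 33 ATF4 and unfolded protein response genes (log2 difference -0.40, limma adjusted p = 0.0086). At an adjusted p under 0.05, 1 member of that list was higher and 5 were lower (all genes 4.97% and 3.49%). Without soft-selected replicate 2 the count at 0.01 was 0 higher and 3 lower (all genes 1.76% and 1.23%). The list's median was 0.00.

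Other genes with large differences belonged to none of these groups. RGS5 was at 55.7, 33.8, 34.6 and 31.0 in soft-selected replicates 1 to 4 and at 8.27, 8.11, 7.95 and 11.2 in stiff-selected replicates 1 to 4. Its soft-selected values were all above its stiff-selected ones (log2 difference 1.98, SE 0.16, limma adjusted p = 0.0008). EEF1A2, a translation elongation factor, was at 101, 163, 113 and 112 against 52.6, 47.5, 37.2 and 51.0 (log2 difference 1.35, SE 0.14, limma adjusted p = 0.0022). The calcification inhibitor MGP was at 3.09 to 6.99 against 0.752 to 1.58 and the selenium carrier SELENOP at 4.64 to 7.13 against 1.32 to 2.83. These had log2 differences of 1.40 and 1.14 on a scale that understates changes of weak genes. KLRC3 and KLRC4, neighbors on chromosome 12 that encode lectin-like receptors known from natural killer cells, were at 8.28 to 17.8 against 2.21 to 6.42 and at 4.68 to 9.80 against 1.61 to 3.56 (limma adjusted p = 0.0085 and 0.0071). They are close paralogs and may share reads, also with KLRC2, which was at 2.08 to 6.96 against 0.487 to 2.06. PTPRC, which blood cells express, was near 0 in the same libraries. On the lower side, the Wnt antagonist DKK1 was at 63.8, 74.3, 60.7 and 58.0 against 119, 141, 98.1 and 124 (log2 difference -0.89, SE 0.11, limma adjusted p = 0.0038). It was the called member among 12 Wnt target genes, whose median was 0.04. The adaptor SH2D5 and the adhesion molecule ICAM2 had log2 differences of -0.80 and -0.69.

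Of 22 TGF-beta target genes 1 was higher and 1 was lower at 0.01, SNAI1 and THBS1 (all genes 0.627% and 0.354%). The list's median was 0.34. Cytosolic ribosomal protein genes, with 76 tested, had 0 calls at 0.01 and 0 at 0.05 by limma, and a median of -0.06. Calls at 0.01 also numbered 0 among 15 EGF receptor ligands and receptors, 37 hypoxia and glycolysis genes (4 higher and 1 lower at an adjusted p under 0.05), 33 cholesterol genes (1 higher), 14 histone genes, 9 mechanosensitive ion channels, 14 genes of the nuclear lamina and LINC complex (1 and 1), 8 caveolae genes, 11 Eph receptors and ephrins, and 21 S100 and annexin genes (1 and 1). At an adjusted p under 0.05, 4.97% of all genes were higher and 3.49% lower. EFEMP1, an ECM glycoprotein, was at 4.84 to 7.62 against 7.84 to 12.8, without overlap (log2 difference -0.67, SE 0.16, limma adjusted p = 0.032).

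Soft-selected replicate 2 was examined on genes called without it, so that its own values had no part in their choice. The fit of the other 7 libraries called 219 genes higher (1.76%) and 153 lower (1.23%). For each of these 372 genes its position was placed on a scale where 0 is the mean of the stiff-selected libraries and 1 the mean of the other 3 soft-selected libraries. The median position was 0.587, with quartiles of 0.235 and 0.903, and was 0.624 over the higher and 0.488 over the lower genes. When each library was left out in turn and placed by the same number of genes of smallest p, soft-selected replicates 1, 3 and 4 had medians of 0.882, 1.06 and 0.668. Stiff-selected replicates 1 to 4, on the scale turned around, had 1.13, 0.974, 0.898 and 0.640. Replicate 2 was thus the lowest of 8, with soft-selected replicate 4 and stiff-selected replicate 4 not far above it. Over the 22 genes whose difference without it was at least 2-fold its median position was 0.878.

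**Figure D4:**
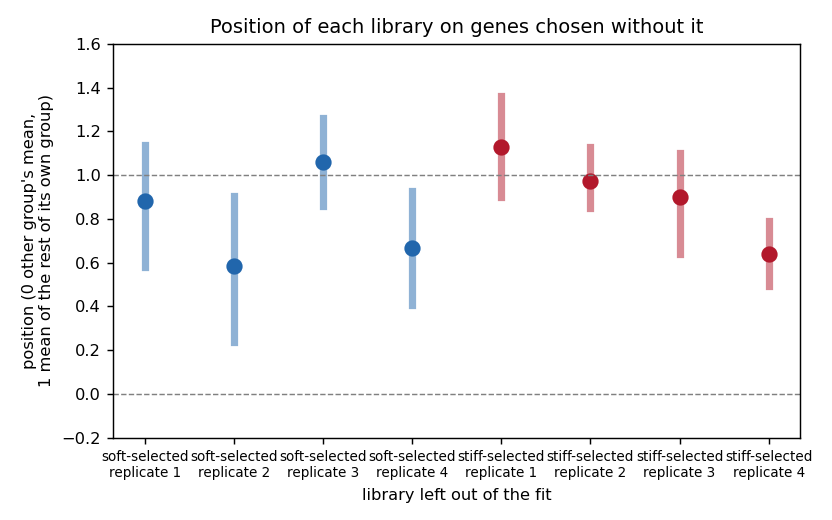
Position of each library (x axis) on the 372 genes of smallest p in a fit without it. On the y axis 0 is the mean of the other group and 1 the mean of the rest of its own group. Points are medians and bars run between quartiles, and soft-selected replicate 2 has the lowest median, 0.587.

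Of 353 genes called without replicate 2 with a group mean FPKM of at least 5, 64 (18.1%) had a value in replicate 2 within the range of the 4 stiff-selected libraries. The 8 of these with the largest differences were CA12, IFITM10, MLXIPL, CYP1A1, TGFBI, PCDHB10, GBP4 and PCDHB9. CA12, a carbonic anhydrase at the cell surface, was at 95.03, 29.8, 80.1 and 46.3 in soft-selected replicates 1 to 4 and at 22.7, 25.1, 17.3 and 30.9 in stiff-selected replicates 1 to 4. TGFBI, a matrix protein that TGF-beta induces, was at 39.7, 18.7, 31.6 and 29.7 against 14.4, 18.8, 16.2 and 20.3. In both genes replicate 2 fell among the stiff-selected values and the other soft-selected libraries lay above them. MLXIPL, the glucose-responsive factor ChREBP, was at 3.01 in replicate 2 and 6.17 to 6.91 in the other soft-selected libraries, and the interferon-induced GBP4 at 6.75 and 9.32 to 13.3.

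Other genes set replicate 2 apart from all 7 libraries. The genes with the largest gaps above were KCNMB4, GPR15, GDF15, PRSS2 and RASEF, and those below were IL1RN, MUC4, SERPINE2, MYH10 and FOXRED2. IL1RN, the antagonist of the interleukin 1 receptor, was at 6.62 in replicate 2 and at 24.1 to 26.7 in the other soft-selected libraries. MYH10, the heavy chain of nonmuscle myosin IIB, was at 3.57 in replicate 2, at 10.7, 9.06 and 18.2 in replicates 1, 3 and 4 and at 17.1 to 20.3 in stiff-selected libraries. GDF15, a stress-induced cytokine, was at 9.82 in replicate 2 and at 2.03 to 3.87 in the other 7, and trypsinogen PRSS2, which has close paralogs, at 31.3 and 1.78 to 14.1. Replicate 2 did not have more such genes than other libraries, since 29.7% of 10673 genes that reached an FPKM of 5 in some library had their highest or lowest value in it. For the other 7 libraries the share was 12.8% to 36.3%, highest in stiff-selected replicate 1.

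Differences of replicate 2 ran along chromosomes. On chromosome 15 its median log2 deviation from the mean of the 8 libraries was 0.33, where the other 7 libraries had -0.10 to 0.01, and 75.5% of the 384 genes tested there had their highest value in it, against 15.5% over all chromosomes. On chromosome X the shift began partway. From MAGT1 to VAMP7, the last 175 tested genes of the chromosome, replicate 2 was 0.60 above the mean of the other 3 soft-selected libraries by median, and over the rest of the chromosome it was -0.09. On chromosome 11 a step down began at BEST1. The median was -0.31 over the 275 genes from there to CEP295, and it was -0.26 over the 150 genes from BIRC2 to ACAD8. In the 11 bins before BEST1 the medians were -0.07 to 0.09.

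The same stretches were close to the stiff-selected mean in the other soft-selected libraries. From MAGT1 to VAMP7 replicates 1, 3 and 4 were -0.06, 0.02 and 0.03 from that mean by median, against 0.60 in replicate 2. On chromosome 15 from NIPA1 to HDDC3 they were 0.06, 0.08 and 0.03, against 0.40. On chromosome 11 from BEST1 to CEP295 they were 0.11, -0.02 and -0.01, against -0.29. Stretches of this kind were also found in 2 other soft-selected libraries. In replicate 4 the stretch was of 76 genes of chromosome 19 from PLPP2 to ZNF77 (median -0.32 from the other 3). In replicate 1 they were of 175 genes of chromosome 11 from TMEM179B to ARAP1 (0.245) and of 100 genes of chromosome X from ARMCX1 to CXorf40B (-0.28), both inside stretches of replicate 2, which is among the 3 libraries it was set against. A stretch was counted where at least 3 neighboring bins of 25 genes had medians past 0.2 on the same side. At this cut the stiff-selected libraries had 0. Smaller shifts were present in them. From MAGT1 to VAMP7 stiff-selected replicates 1 to 4 were -0.06, 0.10, -0.14 and 0.09 from the stiff-selected mean by median. Called genes on the chromosome 11 and 15 stretches of replicate 2 were MMP1, DCUN1D5, ZPR1, THBS1, B2M, TLE3 and ISG20. After the medians of 25 neighboring genes were removed MMP1, THBS1 and ISG20 kept an adjusted p under 0.01 by limma, and the counts over all genes were 82 higher (0.66%) and 41 lower (0.33%), 84 of which were among the 122 called without that step. Gene copy number was not measured in these files, and its part was not tested.

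**Figure D5:**
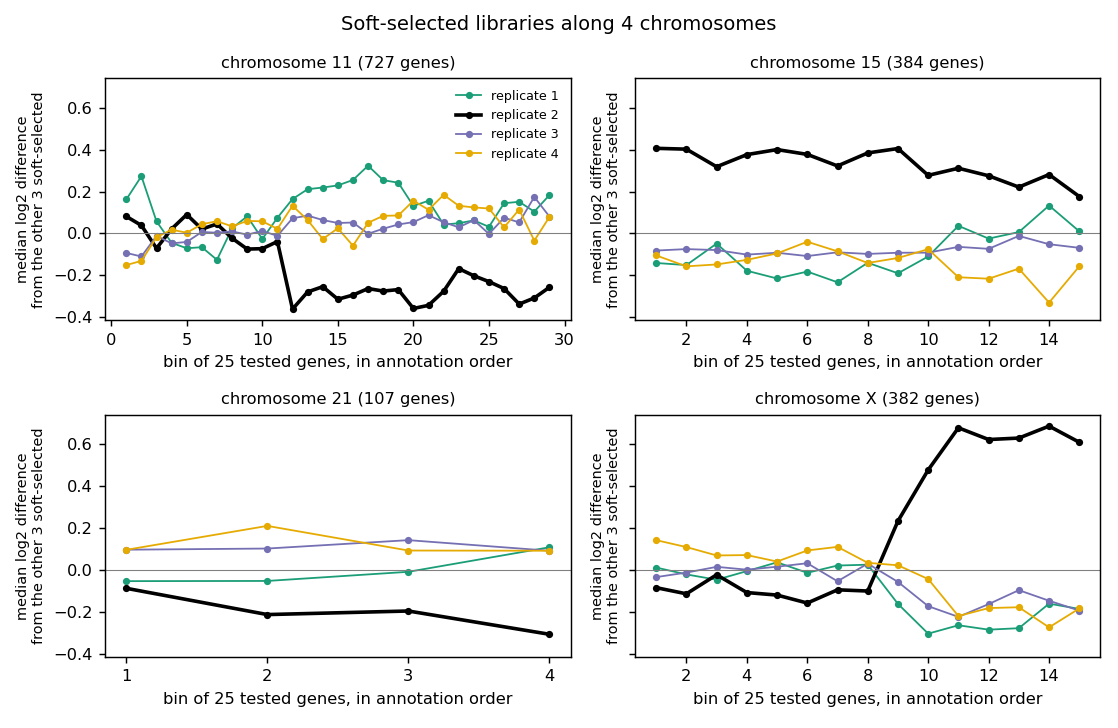
Median log2 difference of each soft-selected library from the mean of the other 3 (y axis), in bins of 25 tested genes in annotation order (x axis), for chromosomes 11, 15, 21 and X. Replicate 2 (black) is above the others along chromosome 15 and the end of chromosome X, by a median of 0.60 from MAGT1 to VAMP7, and below them from BEST1 on chromosome 11.

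Chromosome 21 held 9 of the 44 genes called lower (20.5%), and it holds 0.86% of the genes tested. They were ATP5O, CCT8, ETS2, FAM207A, GART, PDXK, PSMG1, RCAN1 and RRP1B, with log2 differences of -0.54 to -0.36. CCT8, a chaperonin subunit, was at 121, 123, 130 and 134 in soft-selected replicates 1 to 4 and at 171, 161, 171 and 153 in stiff-selected replicates 1 to 4. ETS2, a transcription factor, was at 32.0, 37.2, 31.6 and 30.6 against 49.3, 49.0, 45.7 and 46.0. In both genes the groups did not overlap, and all 9 were named after their values were seen. Over the 107 tested genes of the chromosome the median log2 difference was -0.16, and 27.1% lay below in every soft-selected library, against 7.48% over all chromosomes. The medians relative to the stiff-selected mean were -0.15, -0.34, -0.07 and -0.06 in soft-selected replicates 1 to 4 and -0.08, 0.03, 0.02 and 0.02 in stiff-selected replicates 1 to 4, so that stiff-selected replicate 1 lay with the soft-selected libraries. Without soft-selected replicate 2 the median was -0.11 and 9 genes of the chromosome were called lower, out of 153 over all genes (1.23% of those tested). After removal of neighborhood medians 0 were called lower there by limma. Chromosome 18 had a median of -0.09, with 27 of 169 genes (16%) below in every library, against 7.48% over all chromosomes. There 0 were called lower by limma, or 6 without soft-selected replicate 2 (all genes 0.354% and 1.23%). Its median deviations from the mean of the 8 libraries were -0.06, 0.02, -0.13 and 0.002 in soft-selected replicates 1 to 4. In stiff-selected replicates 1 to 4 they were 0.01, 0.05, 0.08 and 0.05.

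The difference between populations was set against the ECM difference of ancestral cells, which has no library in common with it. The limma interaction over all 16 libraries called 0 genes at an adjusted p under 0.01, with 1585 at an unadjusted p under 0.05 and 33 at an adjusted p under 0.05. RGS5 came nearest, with a difference 1.66 larger on the log2 scale in selected cells (adjusted p = 0.014). In ancestral cells it was at 3.59 ± 0.64 (SD, n = 4) on soft and 2.68 on stiff ECM. CST1, at 24.99 and 19.98 in ancestral cells, and EEF1A2, at 30.1 and 23.5, had larger differences in selected cells by 2.34 and 1.01 (limma adjusted p = 0.025 for both). For PPARG, at 20.3 and 21.5 in ancestral cells, the interaction was -0.69 (limma adjusted p = 0.029). Others were close to the ancestral difference, such as PLOD1 with an interaction of 0.00 and KLRC3 with 0.20. KLRC3 was at 12.9999 and 4.74 in ancestral cells. Some further genes described above differed in the same direction between soft and stiff ECM in ancestral cells. SNAI1 was at 13.02 and 5.43 there, JUNB at 98.3 and 51.5 and ITGA1 at 28.1 and 15.1. F3 was at 275 and 391 and IL11 at 3.20 and 7.54. Their interactions were -0.41, -0.26, 0.37, -0.12 and -0.54 (limma adjusted p = 0.24, 0.6, 0.5, 0.76 and 0.43). A p that misses the threshold does not show equal differences. MMP1 was at 1.48 and 2.93 in ancestral cells, far below both selected populations, and its interaction was -1.24 (limma adjusted p = 0.11).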

How the data were processed

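The authors deposited 1 table of FPKM values for 19468 genes in 16 libraries of total RNA, made after depletion of ribosomal RNA and sequenced as read pairs. STAR and hg19 are named in the submitters' processing notes. Versions, the counter and the annotation are not given in the sources used. In 100% of genes the FPKM were whole multiples of the value of a single read (tolerance 0.001 reads), which gave the reads per library. Libraries were grouped by their names. Differences are soft-selected minus stiff-selected on log2(FPKM + 1), tested with limma 3.58.1 in R 4.3.3 with a trended prior and Benjamini-Hochberg adjustment over 12440 genes, and called at 0.01. The script was tested on simulated data. Other steps used Python 3.11.15, matplotlib 3.10.9, scipy 1.17.1, pandas 2.3.3 and numpy 2.4.6. Errors are SD over 4 libraries or SE of the fit. Chromosomes and gene order of 12426 genes and promoters came from RefSeq of GRCh38.p14, which is not the build of the files, so that no coordinates of genes are given.

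Genes were named by rule. They were the 10 largest and 10 smallest differences among called genes without overlap and with a group mean FPKM of at least 5, up to 3 called members of smallest p for each of 36 gene lists, genes of soft-selected replicate 2 as described beside them, and RHOA, YAP1, WWTR1, ITGB1, ARHGAP42, MMP1, EFEMP1 and MKI67. Of the 10 largest, 1 gene is not reported here. Others are marked as chosen after their values were seen. The comparison, the lists and the rule were chosen with earlier results of these data known. Alternatives were other pseudocounts, filters, scalings, priors, weights and blocks, limma's voom on the recovered reads, all 16 libraries in the fit, and each library left out. Removal of neighborhood medians was added after seeing the data. No replicate libraries were identical (Spearman correlation 0.988 to 0.992).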

Additional observations from a re-analysis of the deposited data

Results flagged for a closer look

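Within groups of 4 libraries, a value was examined further where the highest or lowest library's gap to its neighbor exceeded Dixon's 95% critical value as a fraction of the group's range. This was met by 14 of 262 groups, and chance gives about 1 in 20 where genes are not chosen for such a gap. IL1RN and SERPINE2 were named for theirs in soft-selected replicate 2, so that their values restate that choice. The fractions are given in parentheses. In soft-selected libraries the lowest value stood apart for CST1 in replicate 4 (0.837), for ITGA2 (0.879), ICAM2 (0.835), IL1RN (0.868) and SERPINE2 (0.948) in replicate 2, and the highest for RGS5 in replicate 1 (0.858), IL24 in replicate 4 (0.879) and CD274 in replicate 2 (0.977). In stiff-selected libraries the highest stood apart for RGS5 (0.901) and MXD4 (0.840), both in replicate 4, and the lowest for ATP5O in replicate 3 (0.849). Among medians over chromosomes, soft-selected replicate 2 was highest on chromosome 15 (0.879), soft-selected replicate 1 on chromosome 22 (0.835), and stiff-selected replicate 1 was lowest on chromosome 21 (0.845).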

How the results depend on the processing

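The main counts were 78 higher and 44 lower genes. They were 2 and 0 without a filter (4027 at an unadjusted p under 0.05), 13 and 10 without a trended prior, 481 and 326 with all 16 libraries in the fit, 626 and 441 with array weights, and 618 and 434 at an adjusted p under 0.05. With voom on recovered reads they were 131 and 58 by total library size, and 108 and 67 by the median of ratios. Leaving out each library gave 2 to 219 higher and 0 to 153 lower genes. With the replicate number as a block the counts were 24 and 16. Same-numbered libraries had correlations of deviations of -0.01 to 0.11, 1 of 4 over 0.1, and 2 of 8 libraries correlated best with their own number, so that the numbers are taken as names only. The cause of these changes was not tested. PC1 scores held 81.1% to 92.1% of their variance between groups when each library was left out, where the exact permutation test of 3 against 4 cannot go below 0.057. The position of soft-selected replicate 2 was 0.878 over genes with at least a 2-fold difference. The interaction called 2 genes after quantile normalization and 0 to 14 when each library was left out, 14 of them without soft-selected replicate 4.

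None of the 51 named genes that were called changed sign under any of 22 alternatives. Their groups did not overlap, so that leaving out 1 library could not change a sign. The call at 0.01 held less well. Without a filter 51 of the 51 lost it, and without a trended prior 40. With the replicate number as a block 29 lost it, and with neighborhood medians removed 17. Leaving out each library in turn took the call from 0 to 50 of them. Of the 56 named genes that were not called, SERPINE2 changed sign with array weights (0.12), YAP1 with TPM (0.00082), quantile normalization (0.0057) and neighborhood medians removed (0.012), ITGB1 with neighborhood medians removed (-0.030) and MKI67 with quantile normalization (0.0016). When each library was left out GDF15 ran from -0.17 to 0.45, SERPINE2 from -0.28 to 0.26, FOXRED2 from -0.49 to 0.10 and YAP1 from -0.045 to 0.031, each changing sign without soft-selected replicate 2, YAP1 also without replicate 3 (0.0058), and MKI67 from -0.086 to 0.052, changing sign without soft-selected replicate 1. Genes that did not reach an FPKM of 1 in at least 4 of the 8 libraries were not tested.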
